A study of Mus musculus with 13 samples.

Results

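The NRF2 antioxidant response was examined in mouse melanoma cells that had grown as lung metastases in APOE2 or APOE3 knock-in mice. The genes described are 10 members of this pathway, chosen by symbol: Nfe2l2, Keap1, Nqo1, Hmox1, Gclc, Gclm, Slc7a11, Txnrd1, Srxn1 and Prdx1. All 10 were found among the 22656 genes measured, and all 10 passed the minimum for testing, an average of 10 normalised counts (reads divided by a size factor of the library). None of them differed between the host genotypes past the threshold of the test.

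The tumour cells were B16F10-TR-shApoe, a derivative of the mouse melanoma line B16F10 with a hairpin RNA against Apoe, and the same cells were injected into the tail vein of every mouse. Both groups therefore carried the hairpin, and they differed in the knock-in allele of the host, APOE2 (8 libraries) or APOE3 (5 libraries). The series text gives as many mice as libraries, but no label ties a library to 1 mouse, so p-values measure the spread between these samples. Lungs were digested on day 15, and cells that carried GFP, lacked the leukocyte antigen CD45 and took up little of the dead-cell dye were sorted for RNA. Libraries were made with a kit that reads messenger RNA next to its poly(A) tail. All libraries derive from 1 cell line, and no uninjected or hairpin-free cells were used here.

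NRF2, encoded by Nfe2l2, is a transcription factor that is normally held in the cytoplasm and marked for degradation by KEAP1, a sensor protein whose reactive cysteines detect oxidants and electrophiles. When KEAP1 is inactivated, NRF2 enters the nucleus, pairs with small MAF proteins and binds antioxidant response elements of target genes, which make glutathione, reduce thioredoxin, detoxify quinones and break down haem. NRF2 is regulated largely through its protein, so the level of its messenger RNA is an incomplete reading of its activity. In melanocytic cells the pathway meets the oxidative chemistry of melanin synthesis, and the cystine carrier encoded by Slc7a11 also supplies cysteine for the red-yellow pigment pheomelanin.

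The element that NRF2 recognises has the core TGACNNNGC, where N is any base. RefSeq promoter windows on GRCm38, which run from 250 bases before to 50 bases after each transcription start, were held for 8 of the 10 members (Hmox1 and Gclc had none), in 10 windows. The core was found on either strand in 5 of these windows, 1 each for Nfe2l2, Gclm, Txnrd1, Srxn1 and Prdx1. Of all 32851 such windows, 12.4% held it. The matches are shown as places where the core letters occur near these starts. Elements outside the windows were not searched, and use of these matches by NRF2 was not tested. Each is printed 5′ to 3′ on the strand that carries the core, with the core in capitals and up to 10 bases on each side.
Prdx1: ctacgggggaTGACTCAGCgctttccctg
Nfe2l2: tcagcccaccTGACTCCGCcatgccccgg
Gclm: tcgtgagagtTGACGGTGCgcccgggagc
Txnrd1: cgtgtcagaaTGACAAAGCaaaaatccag
Srxn1: tgtctcactcTGACCTAGCtgcccactgc

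The Prdx1 match (chr4:116685456-116685484, minus strand) was centred at position −129 from the RefSeq start, upstream of the gene. It has the core TGACTCAGC, a special case of TGACNNNGC that also holds the binding letters of AP-1, and that was present in 0.454% of all windows and in 1 of the members' 10 windows. The Nfe2l2 match (chr2:75704885-75704913, minus strand) was centred at −236 and the Gclm match (chr3:122245413-122245441, minus strand) at −130, both upstream of the start. Txnrd1 has 3 windows, and its match (chr10:82859104-82859132, minus strand), at −88 from 1 of these starts, falls inside the gene as GENCODE M21 draws it. The Srxn1 match (chr2:152105542-152105570, minus strand) was centred at position 32 after the start, inside the transcribed part. These are matches of letters, not measured binding.

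Across the series, recovered reads per library ranged from 7080308 to 13039989. Apoe, the target of the hairpin, had 1217 to 2101 normalised counts in APOE2 hosts and 1193 to 2369 in APOE3 hosts, so the groups overlapped. All 10 melanocyte markers checked (among them Dct, Tyrp1 and Sox10) averaged 10 normalised counts or more. Together they came to 36160 to 52030 CPM (counts scaled to a common total) in APOE2 and 26940 to 38500 CPM in APOE3. The sum was mostly Dct, with 176600 to 323100 normalised counts in APOE2 and 101500 to 208300 in APOE3. By the mean log2 value of the 10 markers the groups differed by only 0.097 (APOE2 minus APOE3). RNA of other lung cells was present too: 15 lung-epithelium markers summed to 80.4 to 489 CPM in APOE2 and 421.5 to 2578 CPM in APOE3, and 14 endothelial markers to 90.4 to 146 and 135 to 301. Fibroblast and smooth-muscle markers, 13 in all, summed to 25.1 to 79.9 CPM in APOE2 and 55.4 to 337 CPM in APOE3. Of the 15 epithelial markers 11 had reads in every library, with Sftpc from 390 to 2070 normalised counts in APOE2 and from 1585 to 10970 in APOE3, while 4 were at 0 in some libraries, among them Epcam in 7. Of 12403 genes tested with limma, 51 were higher and 47 lower in APOE2 hosts at a Benjamini-Hochberg adjusted p under 0.05, which is 0.79% of the genes tested (0.411% higher and 0.379% lower). Scaling each library to the same total gave 38 higher and 54 lower. In bulk RNA of sorted cells, fewer cells of a type and less RNA per cell cannot be told apart.

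Against that background of 0.79% (0.411% higher and 0.379% lower), 0 of the 10 members were called by limma, and 0 had an unadjusted p under 0.05, where 14.2% of all genes tested did. The edgeR quasi-likelihood test and DESeq2 on recovered reads also called 0 members, with 0 at an unadjusted p under 0.05 in each. With 1 library left out, an unadjusted limma p under 0.05 was reached by 1 member in 5 of 13 cases. This was Hmox1 without APOE2 replicate 5, APOE2 replicate 6 or APOE3 replicate 4, Txnrd1 without APOE3 replicate 2 and Nqo1 without APOE2 replicate 4. Their limma adjusted p-values in these fits lay between 0.301 and 0.369. In all 10 genes the values of the APOE2 and APOE3 libraries overlapped; the groups did not overlap for 0.984% of all genes tested. The log2 fold change (APOE2 minus APOE3, on the log2(normalised count + 1) scale) was positive for 3 members and negative for 7. Its median was −0.058, beside 0.00037 over all genes tested, and its median size without sign was 0.16, beside 0.22. The genes tested were not matched to the members in expression level. The 2 sizes therefore do not show that the members changed less than genes of like level. The smallest adjusted p of any member, over every alternative setting and every left-out library, was 0.301.

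**Figure D1:**
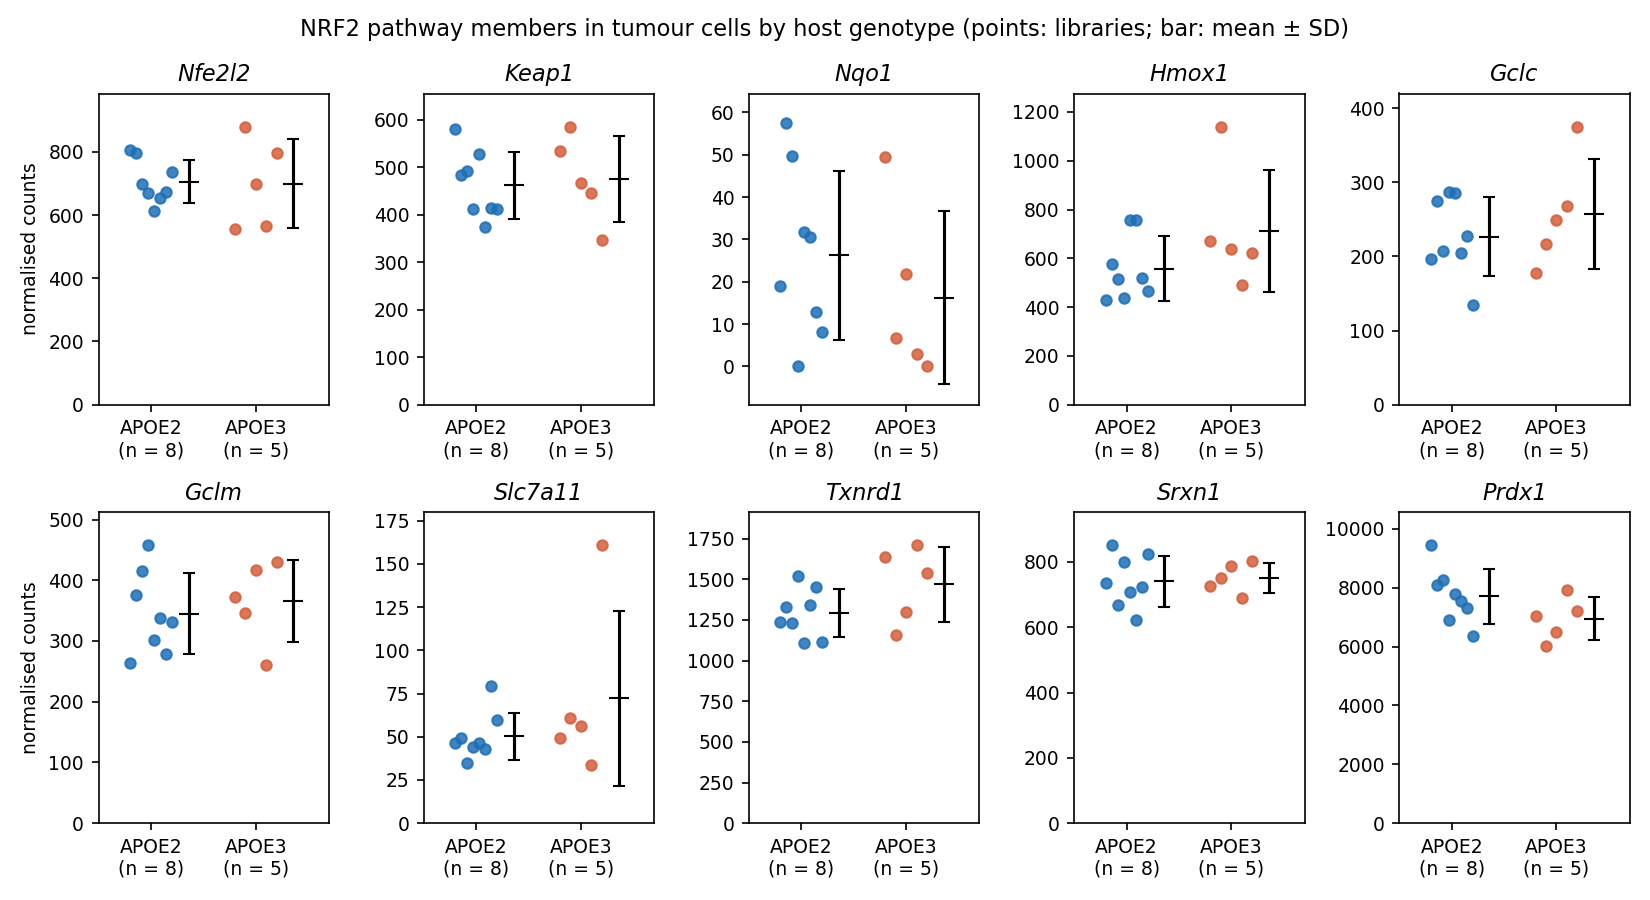
Normalised counts of the 10 members (vertical axis, 1 panel per gene, each with its own scale) in 8 libraries from APOE2 hosts and 5 from APOE3 hosts; points are libraries and the bar is the mean ± SD. The genotypes overlap in every panel, and single APOE3 libraries stand high for Hmox1 (1139) and Slc7a11 (161).

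Neither of the 2 regulators passed the threshold between genotypes. Nfe2l2 (ENSMUSG00000015839, chr2:75675513-75704641, minus strand) had a lowest value of 612, a median of 685 and a highest value of 805 normalised counts over the 8 APOE2 libraries. In APOE3 replicates 1 to 5 it had 555, 879, 698, 567 and 797. Every APOE2 library lay within the APOE3 range, and APOE3 libraries held both the highest and the lowest value of all 13. The means were 705 ± 68.3 (SD, n = 8) and 699 ± 142 (SD, n = 5). The log2 fold change was 0.03 ± 0.13 (SE), with a 95% interval of −0.24 to 0.30 and an adjusted p of 0.946 in limma. In linear terms the interval ran from 0.847 to 1.23, so a larger difference than that in either direction was outside it. The sign depended on the scaling and the libraries: it was −0.01 with equal totals, −0.047 without APOE3 replicate 1 and 0.14 with the lung-epithelium covariate.

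Keap1 (ENSMUSG00000003308, chr9:21229730-21239361, minus strand) encodes the sensor that binds NRF2 and hands it to the CUL3 ubiquitin ligase. Its APOE2 values ran from 374 through a median of 449 to 581 normalised counts, and its APOE3 values were 534, 585, 467, 446 and 346. Again all 8 APOE2 libraries lay within the APOE3 range. With means of 462 ± 70.8 (SD, n = 8) and 476 ± 91.1 (SD, n = 5), the log2 fold change was −0.03 ± 0.15 (SE), the 95% interval −0.34 to 0.27 and the limma adjusted p 0.948. The sign was positive (0.08) with the replicate number as a block. Exons of Keap1 overlap Gm16754 on the opposite strand, which had a mean of only 3.62 normalised counts.

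Nqo1 (ENSMUSG00000003849, chr8:107388225-107403206, minus strand) encodes a quinone reductase that is widely used as a readout of NRF2. It had few reads in these cells, 0 to 57 per APOE2 library and 0 to 47 per APOE3 library, and some libraries were at the detection limit. The APOE2 libraries ran from 0 through a median of 24.8 to 57.5 normalised counts, and the APOE3 libraries had 49.5, 6.78, 21.9, 2.82 and 0. One library of each genotype had no Nqo1 read. These were APOE2 replicate 4 (0 of 8196861 reads) and APOE3 replicate 5 (0 of 7080308 reads), and a count of 0 allows up to 3 reads, or 3.07 and 3.47 normalised counts. The spread within a genotype was far wider than counting error: the coefficient of variation was 76.5% in APOE2 and 126% in APOE3, where counting alone would give 19.1% and 25.5%. The log2 fold change of 1.10 ± 0.95 (SE) had the widest interval of the 10 members, −0.87 to 3.07, with a limma adjusted p of 0.641. On recovered reads the log2 fold change was smaller, 0.691 by edgeR and 0.693 by DESeq2, and with a pseudocount of 5 limma gave 0.738. The limma value was 0.34 without APOE3 replicate 5, 1.76 without APOE3 replicate 1 and 0.66 with the lung-epithelium covariate. Neither the size of the change nor its absence was fixed by these libraries.

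Hmox1 (ENSMUSG00000005413, chr8:75093621-75100589, plus strand) encodes haem oxygenase 1, which opens the haem ring and frees iron. Its APOE2 values ran from 429 through a median of 517 to 758 normalised counts. In APOE3 hosts it had 671, 1139, 639, 491 and 620. The library of APOE3 replicate 2 stood well above all others, and 6 of 8 APOE2 libraries lay below the APOE3 mean of log2 values. The means were 558 ± 132.5 (SD, n = 8) and 712 ± 248 (SD, n = 5), with a log2 fold change of −0.33 ± 0.18 (SE), a 95% interval of −0.70 to 0.046 and a limma adjusted p of 0.419. The unadjusted limma p was 0.0827, the smallest of the 10 members by limma. The exact two-sided permutation test over 1287 divisions of the libraries gave p = 0.150, and by that test Txnrd1 (p = 0.134) and Prdx1 (p = 0.143) had smaller values. Without APOE3 replicate 2 the log2 fold change was −0.14.

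Macrophages are known for high HMOX1, and the level of their markers was set beside Hmox1. Of 15 macrophage and monocyte markers, 12 had a mean under 10 normalised counts and 0 were absent from all libraries. The list summed to 25.2 to 273 CPM in APOE2 and 192 to 1454 CPM in APOE3, mostly Lyz2 (186 to 2119 and 1506 to 11890 normalised counts), a gene that alveolar type 2 cells express as well. The mean log2 value of the list differed by only −0.003 between genotypes, so a fit with it as a covariate could not have moved the Hmox1 value and says nothing about macrophage RNA, whose part in the result was not tested. With the lung-epithelium mean as a covariate the log2 fold change of Hmox1 was −0.42, not past the threshold.

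Glutathione is made from glutamate, cysteine and glycine, and the first step is catalysed by glutamate-cysteine ligase, of which GCLC is the catalytic and GCLM the modifier subunit. Gclc (ENSMUSG00000032350, chr9:77754535-77794485, plus strand) ran from 134.5 through a median of 217 to 287 normalised counts in APOE2, and had 177, 217, 249, 268 and 375 in APOE3. Gclm (ENSMUSG00000028124, chr3:122245557-122270732, plus strand) ran from 263 through 334.5 to 457.5 in APOE2, and had 373, 347, 416, 261 and 430.4 in APOE3. In both genes 7 of 8 APOE2 libraries fell within the APOE3 range. For Gclc the means were 227 ± 52.9 (SD, n = 8) and 257 ± 74.3 (SD, n = 5), and the log2 fold change was −0.17 ± 0.21 (SE; 95% interval −0.60 to 0.25, limma adjusted p = 0.752). It was −0.026 without APOE3 replicate 5, the library with the most Gclc, −0.30 without APOE3 replicate 1 and −0.023 with the lung-epithelium mean as a covariate. For Gclm the means were 345 ± 67.4 and 365 ± 67.4, and the log2 fold change was −0.08 ± 0.17 (SE; 95% interval −0.43 to 0.26, limma adjusted p = 0.864). It ran from −0.20 without APOE3 replicate 4 to −0.020 without APOE3 replicate 5, and was −0.27 with the lung-epithelium covariate. Exons of Gclm overlap Gm17494 on the opposite strand (mean 20.1 normalised counts) and Gm6061 on the same strand (1.46), and the strand setting of the counting is not known here.

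Slc7a11 (ENSMUSG00000027737, chr3:49892526-50443614, minus strand) encodes xCT, the subunit of the cystine-glutamate exchanger that carries the transport. Its APOE2 libraries ran from 34.9 through a median of 46.4 to 79.4 normalised counts, and its APOE3 libraries had 49.5, 61.0, 56.2, 33.9 and 161. The single value of 161, in APOE3 replicate 5, was over 2 times any other APOE3 value and exceeded every APOE2 library. The means were 50.4 ± 13.6 (SD, n = 8) and 72.3 ± 50.5 (SD, n = 5), and the log2 fold change was −0.34 ± 0.35 (SE), with a 95% interval of −1.07 to 0.39 and a limma adjusted p of 0.705. Without that library it was 0.00036, so the whole of the fitted difference rested on it.

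The thioredoxin system was represented by 3 members. TXNRD1 is the cytosolic selenoenzyme that reduces thioredoxin with NADPH, PRDX1 is an abundant peroxiredoxin that destroys hydrogen peroxide, and sulfiredoxin, encoded by Srxn1, restores peroxiredoxins whose cysteine has been over-oxidised. Txnrd1 (ENSMUSG00000020250, chr10:82833951-82897712, plus strand) ran from 1108 through a median of 1282 to 1520 normalised counts in APOE2, and had 1636, 1157, 1301, 1708 and 1539 in APOE3. The 3 highest libraries of the 13 were APOE3 libraries, while APOE3 replicate 2 was among the lowest, and 7 of 8 APOE2 libraries lay below the APOE3 mean of log2 values. The means were 1291 ± 148 (SD, n = 8) and 1468 ± 232 (SD, n = 5). The log2 fold change came to −0.18 ± 0.12 (SE), the 95% interval −0.42 to 0.066 and the limma adjusted p 0.514.

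Srxn1 (ENSMUSG00000032802, chr2:152105516-152111376, plus strand) ran from 622 through a median of 729 to 851 normalised counts in APOE2, and had 727, 751, 787, 688 and 803 in APOE3. It was the most even member within APOE3, with a coefficient of variation of 6.14% there and 10.6% in APOE2, and all 5 APOE3 libraries lay within the APOE2 range. With means of 741 ± 78.7 (SD, n = 8) and 751 ± 46.1 (SD, n = 5), the log2 fold change was −0.02 ± 0.11 (SE; 95% interval −0.26 to 0.21, limma adjusted p = 0.949). With the lung-epithelium mean as a covariate its sign was positive (0.0058).

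Prdx1 (ENSMUSG00000028691, chr4:116685544-116700822, plus strand) was measured most deeply, with 5320 to 13846 reads per library. Its APOE2 libraries ran from 6349 through a median of 7676 to 9436 normalised counts, and its APOE3 libraries had 7046, 6011, 6483, 7926 and 7214. In 6 of 8 APOE2 libraries the value was above the APOE3 mean of log2 values, and the lowest library of all was APOE3 replicate 2. The means were 7709 ± 935 (SD, n = 8) and 6936 ± 730 (SD, n = 5). Its log2 fold change of 0.15 ± 0.11 (SE) had the narrowest interval of the 10 members, −0.073 to 0.37, with a limma adjusted p of 0.557. In linear terms the interval ran from 0.951 to 1.29. The log2 fold change was 0.24 with the lung-epithelium covariate and 0.10 without APOE3 replicate 2.

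**Figure D2:**
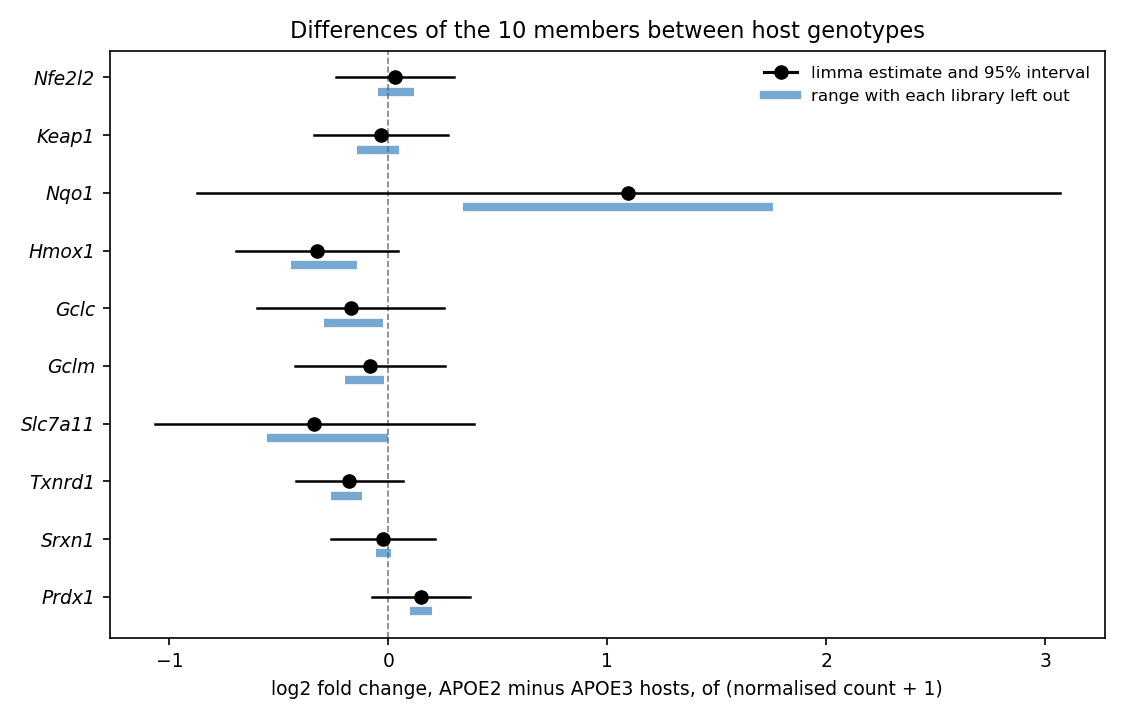
Log2 fold change of each member (horizontal axis, APOE2 minus APOE3) with its limma 95% interval, and below it the range obtained when each of the 13 libraries was left out in turn. Every interval includes 0; the interval of Prdx1 is the narrowest and that of Nqo1 the widest.

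Since the members share a regulator, their covariation from library to library was examined apart from genotype, on log2 values centred within each genotype. Of the 45 pairs, 23 correlated positively and 22 negatively, with a median Pearson r of 0.022. The extremes were 0.55 for Keap1 with Nqo1 (permutation p = 0.0703; Spearman rho 0.53, permutation p = 0.0770) and −0.55 for Hmox1 with Txnrd1 (permutation p = 0.0764; rho −0.47, permutation p = 0.135). The signs of Nfe2l2 with the target genes were mixed. Its r was −0.51 with Txnrd1 (permutation p = 0.143), where rho was −0.46 (permutation p = 0.168). It was −0.18 with Nqo1, −0.15 with Prdx1, 0.073 with Gclc, 0.19 with Gclm and 0.22 with Hmox1. Nfe2l2 had its highest values with Srxn1 and Slc7a11. With Srxn1 it had r = 0.49 (permutation p = 0.0466) and rho = 0.58 (permutation p = 0.0233). With Slc7a11 it had r = 0.48 (permutation p = 0.244) and rho = 0.64 (permutation p = 0.0431). Without APOE3 replicates 1 and 2, the 2 libraries farthest from the median of Nfe2l2, r was 0.61 with Srxn1 and 0.57 with Slc7a11. With Txnrd1 it was then −0.22. After Benjamini-Hochberg adjustment over the 45 pairs no pair passed: the smallest adjusted p was 0.703 for r and 0.525 for rho. Leaving out the 2 libraries farthest from the median brought Hmox1 with Txnrd1 to −0.097 and Keap1 with Nqo1 to 0.45. At 13 libraries, coordinated variation of the members was not detected.

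**Figure D3:**
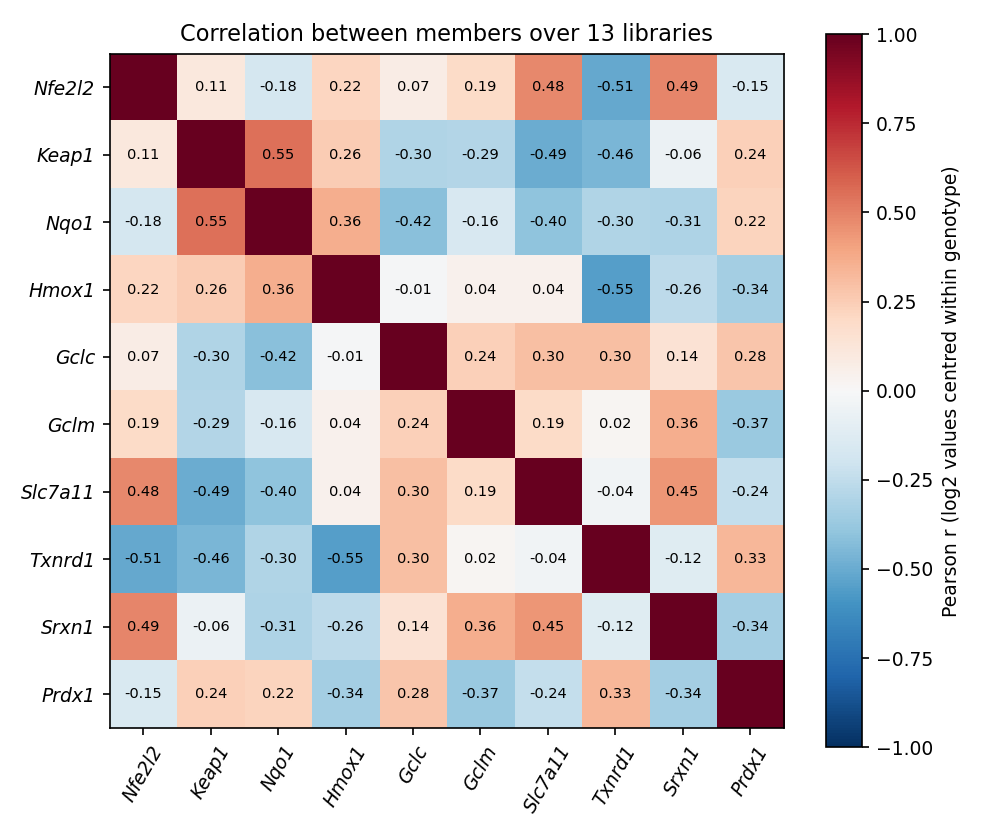
Pearson correlation of each pair of members over the 13 libraries, on log2 values centred within genotype (colour and printed value). Positive and negative pairs are about equally many, and Nfe2l2 has values between −0.51 (Txnrd1) and 0.49 (Srxn1).

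For reference, the genes whose centred pattern was most like that of Nfe2l2, among 9671 genes averaging 50 normalised counts or more, were Cald1 (r = 0.94), Tbc1d9b (0.92) and Lgals7 (0.89). For Nqo1 they were Mex3a (0.90), Epb41l4aos (0.90) and Zmym2 (0.88). These are the highest of many correlations over the same 13 libraries and are given as a description.

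The members were then set beside 83 other genes of the pathway, grouped by role, of which 75 were tested. Of these 75, limma called 2 higher in APOE2 and 0 lower, where 0.79% of all genes tested were called. An unadjusted p under 0.05 was found for 19, 10 higher and 9 lower, where 14.2% of all genes had one. Their log2 fold changes were positive for 38 and negative for 37, with a median of 0.0059. Both called genes encode glutathione S-transferases, which join glutathione to electrophiles. Gstp1 had 1187 ± 288 normalised counts (SD, n = 8) in APOE2 against 595 ± 157 (SD, n = 5), a log2 fold change of 1.00 ± 0.16 (SE) and a limma adjusted p of 0.00611. Gsta1 had 186.5 ± 27.7 against 78.5 ± 34.2, with 1.33 ± 0.25 (SE) and 0.0152; without APOE3 replicate 3 its adjusted p was 0.0582. Some lists of markers of other cells were lower in APOE2 by the log2 difference of the list means. This was −1.50 for endothelium, −1.32 for lung epithelium, −1.16 for fibroblasts and smooth muscle and −0.80 for other leukocytes. It was −0.003 for macrophages and monocytes and 0.21 for erythroid markers. Within the epithelial list, Scgb1a1, Scgb3a2, Foxj1 and Hopx reached higher values in APOE2 (1065, 178.7, 41.96 and 13.55 normalised counts) than in APOE3 (44.07, 0, 6.779 and 6.244). The other markers of that list reached higher values in APOE3. With the lung-epithelium mean as a covariate neither Gstp1 nor Gsta1 was called, and the other lists were not tested in this way. Gstp1 had 1.03 with an adjusted p of 0.109, and Gsta1 had 1.19 with 0.278 (limma). That covariate itself differed by −1.32 between genotypes, so the fit cannot separate it from genotype. Over all genes the same fit called only 1 higher and 1 lower. Whether RNA of other cells bears on the 2 differences was not tested. Neither Gstp1 nor Gsta1 was called by limma without its variance trend. The APOE2 and APOE3 values did not overlap for 3 of the 75 genes, where this was so for 0.984% of all genes tested: Gstp1, Gsta1 and Aldh3a2. Aldh3a2 encodes a fatty aldehyde dehydrogenase and is named after its values were seen. It ran from 337.4 to 538 normalised counts in APOE2 and from 176 to 337.2 in APOE3, with a log2 fold change of 0.56 ± 0.16 (SE) and a limma adjusted p of 0.108. Gstp1 and Gsta1 have close relatives in the genome with which reads could be shared.

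**Figure D4:**
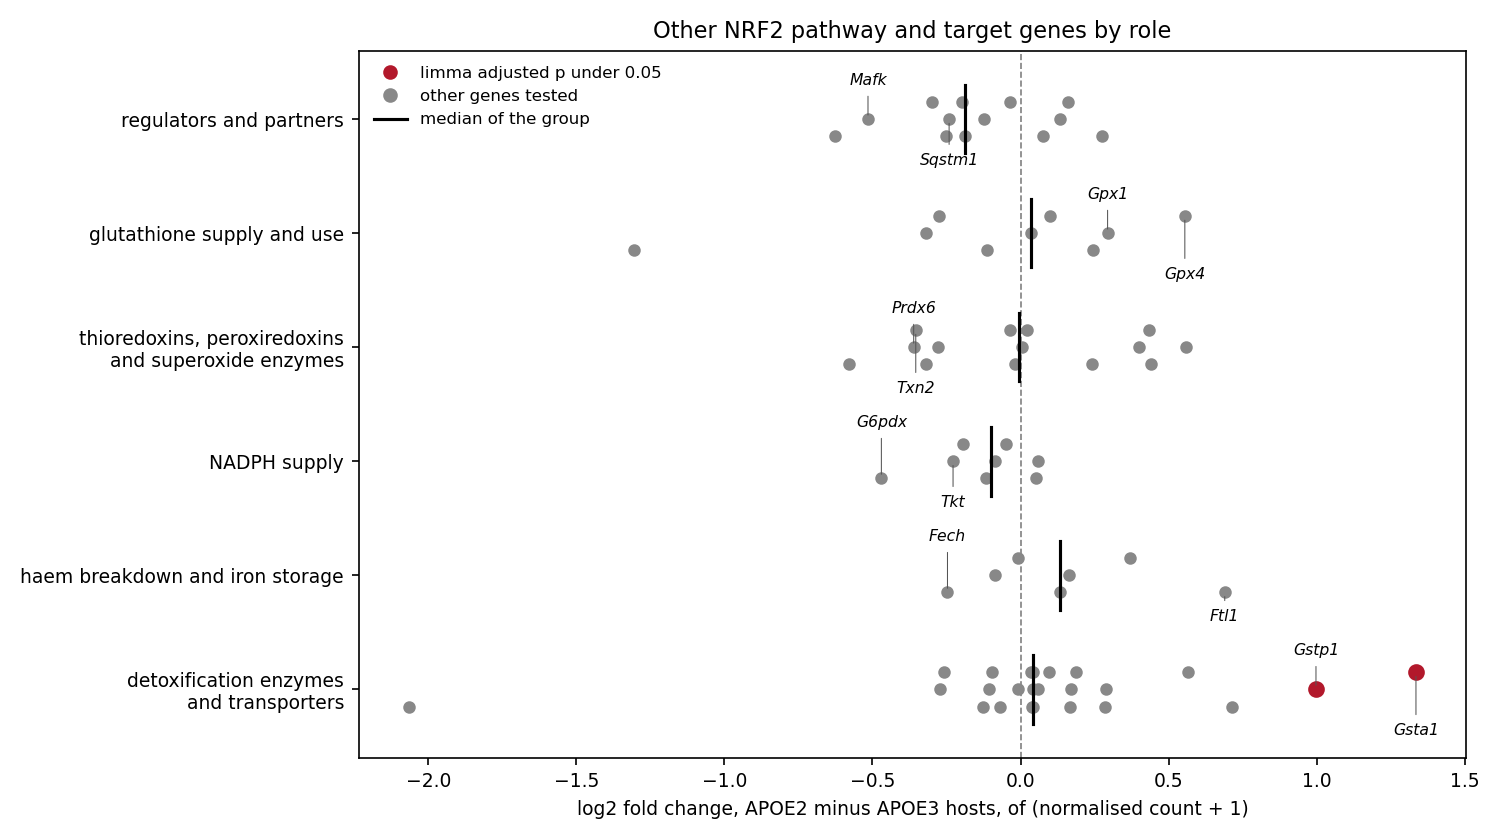
Log2 fold changes (horizontal axis, APOE2 minus APOE3) of the 75 other pathway genes tested, by role (vertical axis); each point is a gene, black bars are group medians, and the genes described in the text are labelled. Gstp1 and Gsta1, in the detoxification group, are past the threshold, and the remaining 73 are not.

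Among 13 regulators and partners of NRF2, 0 were called, 9 had a negative log2 fold change and the median was −0.19. Mafk, a small MAF partner, had 151 ± 35.8 normalised counts (SD, n = 8) against 214 ± 43.2 (SD, n = 5), a log2 fold change of −0.52 ± 0.21 (SE) and a limma adjusted p of 0.256. Sqstm1 encodes p62, which can sequester KEAP1, and is itself a target. It had 5288 ± 342 against 6307 ± 1088, with −0.24 ± 0.11 (SE) and an adjusted p of 0.302. Its highest value, 8173, came from APOE3 replicate 2, the library that was also highest for Hmox1, Nfe2l2 and Keap1, and without it the log2 fold change was −0.14. For both genes each of the 8 APOE2 values was under the APOE3 mean of log2 values. Mafk overlaps Tmem184a and Sqstm1 overlaps Mrnip on the opposite strand.

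Of 9 genes tested that supply or use glutathione, 0 were called, with 5 positive and 4 negative. Gpx1, the main cytosolic glutathione peroxidase, had 4747 ± 451 normalised counts (SD, n = 8) against 3870 ± 364 (SD, n = 5). All 8 APOE2 libraries lay above the APOE3 mean of log2 values, and the log2 fold change came to 0.29 ± 0.10 (SE; limma adjusted p = 0.177). Gpx4, which reduces lipid peroxides in membranes, had 333 ± 84.6 against 243 ± 112, with 0.55 ± 0.26 (SE) and an adjusted p of 0.344. It has a named pseudogene, Gpx4-ps2, which could share reads.

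The group of thioredoxins, peroxiredoxins and superoxide enzymes had 0 genes called among 14, yet 8 of the 14 had an unadjusted p under 0.05, where 14.2% of all genes did. These 8 were divided, 4 higher and 4 lower in APOE2, and the median of the group was −0.0066. Prdx6 had 1083 ± 153 normalised counts (SD, n = 8) against 1388 ± 186 (SD, n = 5), with a log2 fold change of −0.36 ± 0.12 (SE) and a limma adjusted p of 0.177. Txn2, the mitochondrial thioredoxin, had 1948 ± 259 against 2502 ± 449, with −0.35 ± 0.12 (SE) and 0.179. Prdx6 has a named pseudogene, Prdx6-ps2, which could share reads. Each of the 8 APOE2 values was under the APOE3 mean of log2 values in both Prdx6 and Txn2. The 4 higher genes, named after their values were seen, were Txnrd2 (log2 fold change 0.56), Txnip (0.44), Prdx4 (0.43) and Txn1 (0.40). All 8 APOE2 values were above the APOE3 mean of log2 values in Txnip, Prdx4 and Txn1, and 7 of 8 in Txnrd2. The other lower genes were Sesn2 (−0.58) and Sod1 (−0.28).

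NADPH is consumed by both thioredoxin reductase and glutathione reductase. Of 8 genes listed under its supply, 0 were called and 6 had a negative log2 fold change. Not all of their enzymes make NADPH themselves. G6pdx, encoding the entry enzyme of the pentose phosphate pathway, had 216 ± 37.0 normalised counts (SD, n = 8) against 305 ± 86.1 (SD, n = 5), with −0.47 ± 0.19 (SE) and a limma adjusted p of 0.254. Tkt, encoding transketolase, had 943 ± 71.8 against 1109 ± 137, with −0.23 ± 0.11 (SE) and 0.350. G6pdx overlaps Ikbkg on the opposite strand (mean 244 normalised counts), so its counts are uncertain to that extent.

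In the group of haem breakdown and iron storage, 0 of 7 genes tested were called. Ftl1, the ferritin light chain that stores the freed iron, had 1379 ± 432 normalised counts (SD, n = 8) against 879 ± 314 (SD, n = 5), with a log2 fold change of 0.69 ± 0.22 (SE) and a limma adjusted p of 0.142. It has named pseudogenes (Ftl1-ps1 and Ftl1-ps2), and how shared reads were counted is not stated. Fech is listed here although its enzyme makes haem, by inserting iron into protoporphyrin. It had 300 ± 47.6 against 356 ± 56.0, with −0.25 ± 0.16 (SE) and 0.502. Besides the 2 called genes, the other 22 of 24 detoxification enzymes and transporters tested did not pass.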

How the data were processed

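RNA was measured in 13 libraries of sorted melanoma cells, grouped by the host genotype in the sample titles. The authors deposited normalised counts, a signal value for every gene in each library, in 1 table. Per the submitters' processing notes, STAR 2.6.0, featureCounts, DESeq2 1.28.1 and mm10 were used; the annotation and the strand setting are not given in the sources used here. Dividing by the smallest step of a library gave whole reads (within 0.01 reads) for 100% of its values. Symbols and positions came from GENCODE M21 on GRCm38, the same assembly, for 22649 of 22656 identifiers. Promoter windows came from RefSeq on GRCm38.

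Genes averaging 10 normalised counts or more were tested on log2(value + 1) with limma 3.58.1 (R 4.3.3, variance trend, two-sided, Benjamini-Hochberg over all genes tested, threshold 0.05), after the steps were tested on simulated counts. A fold change on this scale depends on the added 1 in low genes, and it can be smaller or larger than that of a count model. Intervals are limma's 95% intervals, and floors of 3 reads cover counting error only. Correlations used 100000 permutations within genotype. Alternatives were pseudocounts of 0.5 and 5, equal totals, TMM, no filter, a filter at 50, each of the libraries omitted, a replicate block, limma without trend or with robust variance, edgeR 4.0.16 and DESeq2 1.42.0 on recovered reads, marker means as covariates and, for single members, an exact permutation test. Named genes were all members, genes past the threshold in each role group (or otherwise the 2 with the smallest p), and the 3 genes most like Nfe2l2 and Nqo1. Members and lists were chosen with earlier results of these data known.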

Additional observations from a re-analysis of the deposited data

Results flagged for a closer look

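In 44 screens of the named genes for a library that stood apart from its group (Dixon's criterion), 3 values did so, where chance gives about 2.2. All 3 were in APOE3 hosts. Hmox1 had 1139 normalised counts in APOE3 replicate 2, and the next library had 671. Sqstm1 had 8173 in the same library, with 6206 in the next. Slc7a11 had 161 in APOE3 replicate 5, with 61.0 in the next.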

How the results depend on the processing

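No member was called under any of the alternatives or with any library left out, and 209 of 220 alternative values of single members kept their direction, leaving out 49 that could not change because the setting alters only the test or the genes tested. The 220 include fits with the macrophage and monocyte mean as a covariate. That mean differed by only −0.003 between genotypes, so these fits could hardly move a value. Of the 220, 11 were reversed. Nfe2l2 was −0.010 with equal totals, and −0.047 to 0.12 with 1 library left out; Keap1 was 0.085 with the replicate block and −0.14 to 0.047 with 1 left out; Srxn1 was 0.0058 with the lung-epithelium covariate and −0.056 to 0.010 with 1 left out; Slc7a11 ran from −0.55 to 0.00036 with 1 left out. The cause was not tested. Over all genes, with 1 library left out, 5 to 131 were called higher and 4 to 97 lower, the fewest without APOE3 replicate 3 and the most without APOE3 replicate 1. The counts higher and lower were 5 and 4 with no filter, 0 and 0 without the trend (1599 genes at an unadjusted p under 0.05), 153 and 158 with DESeq2, 1 and 1 with the lung-epithelium covariate and 17 and 26 with the replicate block. Lower genes numbered 73 with a pseudocount of 5 and 77 with edgeR. Of the wider pathway, 1 gene was called with no filter and 1 with the block (Gstp1 in both), 0 without the trend, 0 with the lung-epithelium covariate, 4 with DESeq2 (Gpx3 lower and Aldh3a2 higher besides Gstp1 and Gsta1), and 1 to 2 with 1 library left out. The labels tie same-numbered libraries of the genotypes by the number only, and do not state a pairing by design. Their deviations from the group means correlated from −0.063 to 0.014, which cannot show how the samples were collected. No value could be given for Nqo1 at a minimum mean of 50. At a count of 0, Nqo1 could not be told from up to 3 reads.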

Other observations

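APOE3 replicate 5 had the highest Slc7a11 and the highest Gclc of the 13 libraries, and 0 Nqo1 reads. APOE3 replicate 2 was highest for 3 members (Nfe2l2, Keap1 and Hmox1) and lowest for Prdx1. The core TGACNNNGC was present in promoter windows of 16 of 67 matched genes of the wider pathway (23.9%), of 5 of 8 matched members (62.5%) and of 3781 of all 27025 genes with a window. Of the wider list, 8 genes were not tested. Ugt1a6a was not matched by symbol, and Gpx2, Abcb6, Aldh3a1, Pir, Ptgr1, Abcc2 and Abcc3 had means from 1.05 to 9.97 normalised counts.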
